A study of Macaca fascicularis with 44 samples.

Results

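Brain endothelial cells (ECs) of the brainstem were compared with those of the hippocampus after 7 days in culture, the fraction named P0D7. Of the 44 libraries of the series, 13 entered this comparison, 6 of brainstem and 7 of hippocampus, taken by the structure in their labels. The cells came from microvessels of male and female cynomolgus monkeys (Macaca fascicularis) at the end of pre-clinical studies. The vessels were freed by collagenase and dispase digestion and centrifugation, and the cells were grown in endothelial medium, at first with puromycin, an inhibitor of translation used to select brain ECs. Both structures were treated alike. The methods give the age of the monkeys as a range over all animals, not tied to a library. Each label also carries a code, BBB followed by a number, read here as a preparation. Brainstem replicates 1 to 6 and hippocampus replicates 1 to 6 share the codes BBB027 to BBB032. Hippocampus replicate 7, of BBB035, has no brainstem partner. The sources do not say whether a code is an animal of its own, and the p-values rest on how far these libraries vary, which may be technical.

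Brain ECs line the capillaries of the brain and, by their tight junctions and selective transporters, form the blood–brain barrier. The brainstem carries the centres of breathing and circulation and the tracts to the spinal cord, whereas the hippocampus is a forebrain structure of memory. Capillary ECs of a structure receive signals from the glia, pericytes and neurons around them, cells that the culture is meant to remove. The question was whether ECs of these structures still differ in their transcriptome after such a culture. The files name genes by Ensembl identifiers without symbols, and the reference table of the species matched 0 of 28623 identifiers. The results are therefore given for genes by number, and in full for 4 identifiers. Markers of ECs and of other cell types could not be looked up, and the labelled cell type was not checked against them.

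RNA was sequenced after removal of ribosomal RNA, and the deposited files give estimated read pairs per gene and FPKM, fragments scaled to gene length and library total. The total count per library ran from 14166654 to 20135358 in brainstem and from 8633089 to 24023026 in hippocampus, where replicate 3 was the shallowest. Genes at 1 FPKM or more numbered 11115 ± 109 in brainstem (SD, n = 6) and 11125 ± 87.5 in hippocampus (SD, n = 7). Over the 6 pairs of a shared code, the number of genes differed by -3 ± 83.5 (SD) and the total count by -2124420 ± 5670210 (SD), brainstem minus hippocampus, with p = 0.938 and p = 0.406 in an exact two-sided permutation test that flips the sign of each pair. The 10 most abundant genes took 13.3% of the counts in brainstem and 12.2% in the paired hippocampus libraries, and more in brainstem in 6 of 6 pairs (exact permutation p = 0.0312, the smallest that 6 pairs allow, and 0.0938 after adjustment over the 3 measures). The part of this share in the differences between structures was not tested.

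The preparation accounted for more of the variation than the structure. Among the 12 paired libraries, the code held 70.5% of the squared deviations of log2 CPM (counts scaled to the library total), the structure 17.9% and the remainder 11.6%, where the code has 5 degrees of freedom and the structure 1. Across genes, which are not independent, Pearson's r of log2 CPM was 0.977 on average between the libraries of a code (6 pairs). It was 0.961 between libraries of the same structure and different codes (36 pairs) and 0.952 where both differed (36 pairs). The closest library was the partner of the same code for 9 of the 12 paired libraries.

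The structures overlapped on the first principal component (35.6% of the variance), yet every pair was ordered alike. Brainstem libraries ran from -37.3 to 43.1 and hippocampus libraries from -54.3 to 18.4, and the brainstem library stood above its partner in 6 of 6 pairs. Hippocampus replicate 7 took the highest value of its structure. The second component, with 15.1% of the variance, also placed brainstem above its partner in 6 of 6 pairs.

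**Figure D1:**
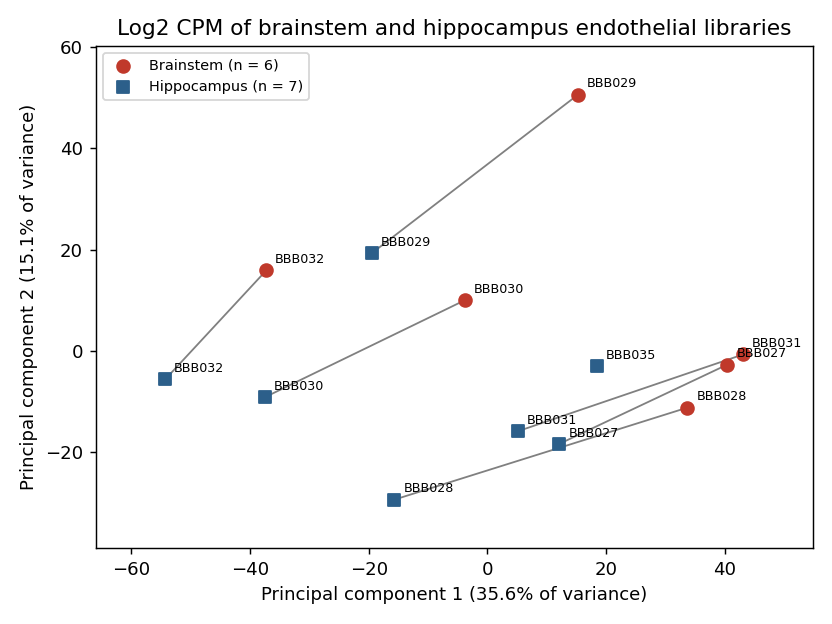
Principal components 1 and 2 of log2 CPM for the 6 brainstem (circles) and 7 hippocampus (squares) libraries, with grey lines between libraries of the same code. Every line runs from the hippocampus library up and to the right to its brainstem partner, and BBB035 has no partner.

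Within preparations, 1079 of 11670 genes were differentially expressed (9.25% of the genes tested). Of these, 500 were higher in brainstem (4.28%) and 579 were lower (4.96%). In such bulk samples, fewer cells of a type and less RNA per cell cannot be told apart. Genes were tested if 3 or more of the 13 libraries had 1 FPKM or more, which left out the other 16953 identifiers. Called genes had a fold of 1.5 or more and a p of 0.05 or less after Benjamini-Hochberg adjustment, in edgeR's quasi-likelihood test with the code as a block. Leaving the fold aside, 4102 genes passed the adjusted p (35.1%), and 5330 had an unadjusted p under 0.05 (45.7%). The block sets each brainstem library against its own partner, so that hippocampus replicate 7 adds nothing to the difference. Without it the count was again 1079. DESeq2 with the block called 1065 genes, of which 1035 were among the 1079.

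The count varied widely with the fit. Without the block, which also brings hippocampus replicate 7 into the difference, edgeR called 0 genes, with 1578 at an unadjusted p under 0.05, and DESeq2 called 151. With the same 12 paired libraries and no block, an alternative added after the data were seen, edgeR called 1 gene, with 2044 at an unadjusted p under 0.05, and DESeq2 called 370. With all 30 P0D7 libraries of 5 structures fitted together, block included, edgeR called 524 genes, 519 of them among the 1079.

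The differences were mostly small. The median fold change was 1.78 both among the genes higher in brainstem and among those lower, and 1.13 over all genes tested. A fold of at least 2 was reached by 164 higher and 190 lower genes, and a fold of at least 4 by 20 and 21. The largest fitted fold was 9.74 among the higher and 11.5 among the lower genes. The called genes were less abundant than most, at a median of 6.72 FPKM in brainstem and 3.90 FPKM in hippocampus for the higher set, and 3.73 FPKM and 6.23 FPKM for the lower set. Over all genes tested the medians were 12.2 FPKM in brainstem and 12.1 FPKM in hippocampus. By the mean of the higher structure, 13.4% of the 4629 genes above 1 and up to 10 FPKM were called, 5.78% of the 6108 genes above 10 and up to 100 FPKM, and 10.8% of the 640 genes above 100 FPKM. The most abundant class thus held 30 genes higher and 39 lower in brainstem.

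**Figure D2:**
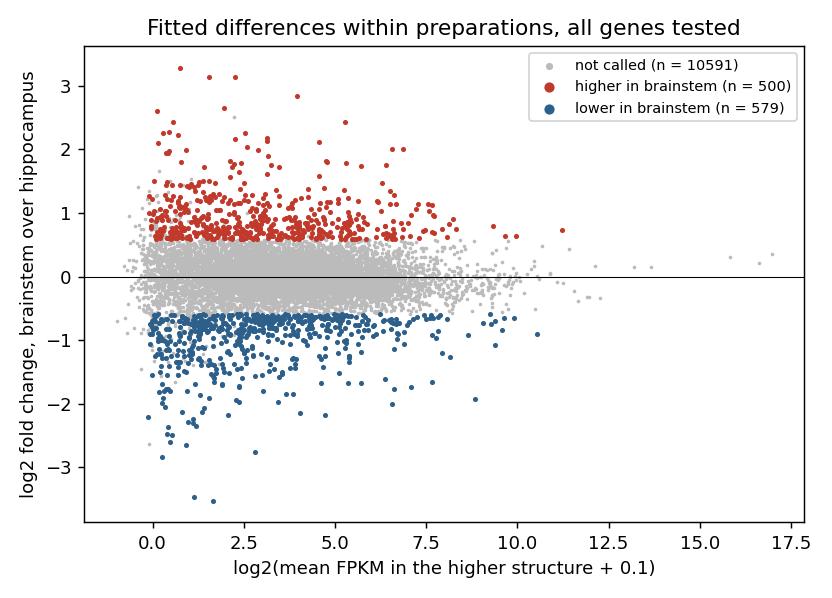
Fitted log2 fold change of brainstem over hippocampus against the log2 of the mean FPKM in the higher structure plus 0.1, with 1 point per gene tested. The 500 genes higher (red) and 579 lower (blue) in brainstem lie on both sides of 0, and all but 164 and 190 of them stay within a fold of 2.

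No gene marked either structure by its presence alone. In all 13 libraries, 10131 genes reached 1 FPKM. There were 0 genes with at least 1 FPKM in all brainstem libraries and under 1 FPKM in all hippocampus libraries, and 0 of the opposite kind. Where 50% or more of a structure's libraries had to reach 1 FPKM, 289 genes passed in brainstem alone, 160 in hippocampus alone and 10900 in both.

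The levels of the 2 structures overlapped for nearly all called genes. Every brainstem library stood on the same side of all 7 hippocampus libraries in FPKM for 26 of the 1079 genes, against 0.454% of all genes tested. Against the 6 paired hippocampus libraries alone it did so for 78, against 1.41% of all genes tested. These counts describe the genes that the same contrast called. For the called genes, the median SD of log2 CPM was 0.72 among brainstem and 0.60 among the paired hippocampus libraries, whereas the SD of the 6 differences within pairs was 0.45. The corresponding medians over all genes tested were 0.29, 0.24 and 0.20, and the called genes thus varied more between preparations as well.

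Pair by pair, the directions were alike. Of all genes tested, 33.8% differed in the same direction in 6 of 6 pairs, 1942 of them higher (16.6%) and 2006 lower (17.2%) in brainstem. Among the called genes, 423 of 500 that were higher did so, and 495 of 579 that were lower. The test was blocked on these same pairs and favours genes that agree across them, so high shares among called genes are partly built in. The differences of the pairs, brainstem minus hippocampus, correlated with each other across the genes at r between 0.402 and 0.653 (15 combinations of pairs, mean 0.532), as a description. The size varied by preparation. The share of all genes that differed at least 1.5-fold within a pair was lowest in BBB032, at 9.40%, and highest in BBB028, at 22.0%. The median log2 difference over the higher genes was 0.58 in BBB032 and 1.10 in BBB028, and over the lower genes -0.58 and -1.08.

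A pair that took no part in the calls gave the same direction for most genes. When each pair was left out in turn, the other 5 pairs called 890 to 1255 genes. Between 88.4%, for BBB032, and 97.2%, for BBB028, of these genes had the direction of the call in the pair left out, where 47.7% to 50.8% of all genes tested were higher in brainstem. The median log2 difference in the pair left out was 0.46 to 1.06 over the genes called higher and -1.06 to -0.43 over those called lower. Genes share a library, so these shares count genes and not independent tests.

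The 4 identifiers given in full are the pair with the largest rise and the pair with the largest fall among called genes that kept their direction in 6 of 6 pairs, averaged 10 FPKM or more in the higher structure and had 3 or more counts in the lower one. A total of 184 higher and 207 lower genes met these conditions.

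ENSMFAG00000040183 rose most. It ran from 5.79 FPKM to 25 FPKM in brainstem, with a median of 15.3 FPKM, and from 0.453 FPKM to 16.1 FPKM in hippocampus, with a median of 1.66 FPKM. The highest hippocampus value was that of replicate 7, which lay inside the brainstem range, and the next was 6.67 FPKM in BBB031. Within pairs, brainstem stood above hippocampus by 2.12 times in BBB031 and by 38.9 times in BBB030, the extremes of the 6 ratios, where the hippocampus library of BBB030 had 24 counts. The fitted log2 fold change was 2.84 (standard error, SE, 0.44, adjusted p = 0.00125 in edgeR). Each SE given here was derived from the test, as the size of the log2 fold change over the square root of its F statistic. This gene was not restricted to brainstem. At P0D7 it reached 28.8 FPKM in striatum, 55.0 FPKM in cortex and 69.4 FPKM in cerebellum, the last 2 in libraries of BBB035. The other cortex libraries ran from 1.59 FPKM to 9.38 FPKM, and the other cerebellum library stood at 9.39 FPKM. The medians of striatum, 9.79 FPKM, and cortex, 5.21 FPKM, were below that of brainstem.

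ENSMFAG00000030098 had the steadier difference. Its level was 8.05 FPKM to 67.7 FPKM in brainstem, with a median of 40.3 FPKM, and 1.79 FPKM to 29.6 FPKM in hippocampus, with a median of 7.60 FPKM. The ranges overlapped widely, both structures were low in BBB030 and BBB032, and replicate 7 was again the highest of hippocampus. Brainstem exceeded its partner by 2.78 times in BBB027 and up to 7.82 times in BBB028. The fitted log2 fold change was 2.42 (SE 0.18, adjusted p = 5.96e-05 in edgeR). In striatum it spanned 3.36 FPKM to 90.5 FPKM, with a median of 19.2 FPKM, and in cortex 3.19 FPKM to 51.9 FPKM, with a median of 4.81 FPKM. Striatum passed the highest hippocampus value in BBB028, BBB029 and BBB031, and cortex in BBB035 alone.

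ENSMFAG00000044030 fell most, and its level varied widely between preparations. Its level was 0.293 FPKM to 14.3 FPKM in brainstem, with a median of 3.45 FPKM, and 0.576 FPKM to 92.6 FPKM in hippocampus, with a median of 15.5 FPKM. BBB027 was lowest in both structures, and BBB028 was highest in hippocampus. Within pairs, the brainstem level was 0.0837 times that of hippocampus in BBB029 and 0.709 times in BBB030. The fitted log2 fold change was -2.18 (SE 0.38, adjusted p = 0.00231 in edgeR). With the 30 P0D7 libraries fitted together, it was -2.05 and missed the threshold (adjusted p = 0.0543 in edgeR).

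ENSMFAG00000032706 was lower in brainstem in each preparation, as its choice required. It ran from 1.35 FPKM to 7.54 FPKM in brainstem, with a median of 4.47 FPKM, and from 5.00 FPKM to 30.3 FPKM in hippocampus, with a median of 11.1 FPKM. Without replicate 7, the lowest of hippocampus, the structures did not overlap, as the paired hippocampus libraries began at 8.11 FPKM. The brainstem level was 0.144 times that of its partner in BBB029 and 0.349 times in BBB032. The fitted log2 fold change was -2.14 (SE 0.14, adjusted p = 2.96e-05 in edgeR).

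**Figure D3:**
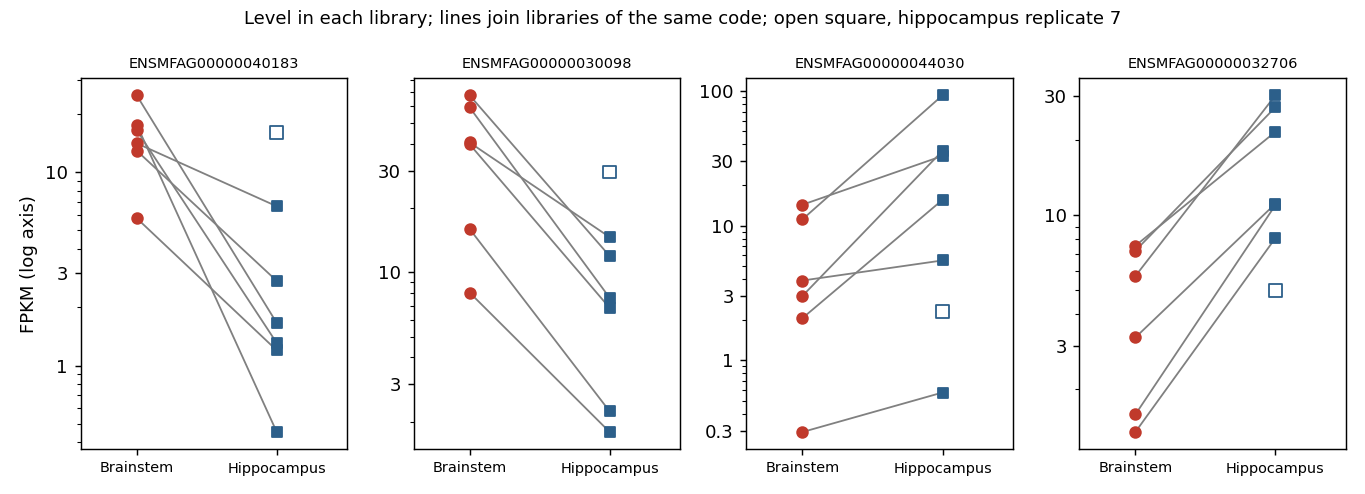
FPKM on a log axis of the 4 identifiers in the 6 brainstem (circles) and 7 hippocampus (squares) libraries, with lines between libraries of the same code and an open square for hippocampus replicate 7. All 24 lines slope in the direction of the call, as the choice of the identifiers required, and the open square lies within the brainstem values in each panel.

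Hippocampus replicate 7 lay on the brainstem side of its own structure for most called genes. It was not used by the block, and its FPKM was nearer to the brainstem mean than to the mean of the 6 paired hippocampus libraries, on the scale of log2(FPKM + 0.1), for 353 of 500 higher genes and for 456 of 579 lower genes (75.0% of the called genes). Over all genes tested the share was 63.6%. It lay beyond all 6 paired hippocampus libraries, towards brainstem, for 587 called genes (54.4%, against 32.6% of all genes tested), and beyond them in the other direction for 21 (1.95%, against 6.14%). The genes were called for the distance of the 6 paired libraries from brainstem, so that a library outside the calls can lie nearer to it by the choice of genes alone. The hippocampus library of a pair left out of the calls gives the like measure, added after the data were seen. It was nearer to the mean of the other brainstem libraries for 9.40% of the called genes in BBB032 and up to 58.4% in BBB027, all below the 75.0% of replicate 7. Over all genes tested, the shares ran from 26.3% in BBB032 to 56.4% in BBB027, also below the 63.6% of replicate 7. The higher share of replicate 7 was thus not particular to the called genes. Differences between single libraries and between preparations cannot be told apart here.

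The called genes also parted libraries of the same structure elsewhere in the brain. For each of the 30 P0D7 libraries, the median log2 CPM of the higher genes minus that of the lower genes was taken, each gene centred on its mean over the 30. Brainstem libraries ran from -0.54 to 1.47, with 5 of 6 above 0, and hippocampus libraries from -1.84 to 0.60, with 1 of 7 above 0. The highest hippocampus value and the single one above 0 was that of replicate 7, which adds nothing to the fitted difference. The 12 paired libraries chose the genes, whereas replicate 7 and the libraries of striatum and cortex did not. The 7 striatum libraries ran from -1.14 to 1.84 and the 8 cortex libraries from -1.08 to 1.40, each with 3 libraries above 0. The labels number the cortex libraries in a series apart from that of the other structures. What the series stands for is not stated, and cortex and its series cannot be told apart. In 7 of the 8 cortex and 5 of the 7 striatum libraries, the medians of the higher and the lower genes had opposite signs.

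**Figure D4:**
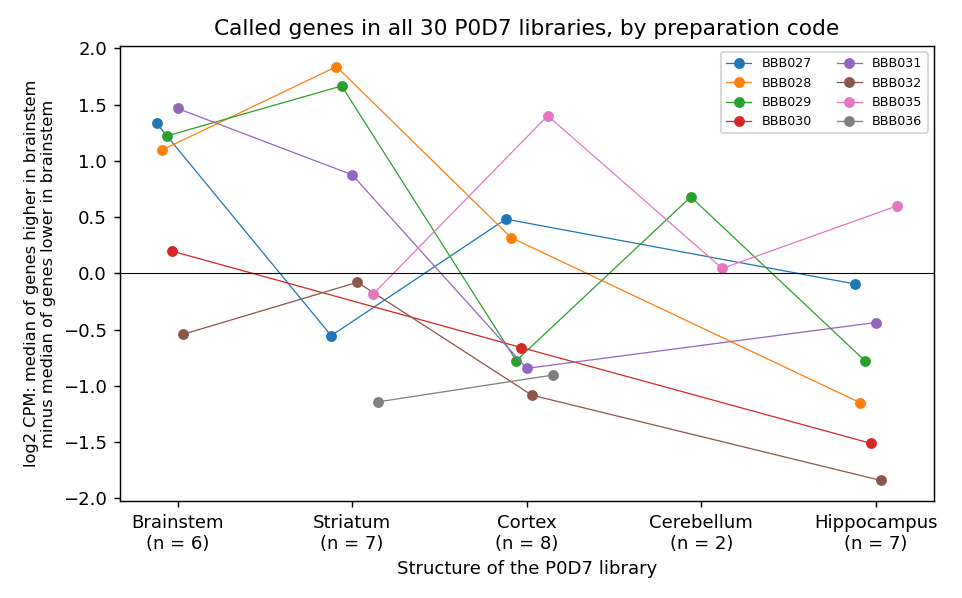
Median log2 CPM of the 500 genes higher in brainstem minus that of the 579 genes lower, for each P0D7 library by structure, with lines between libraries of the same code. The cortex and striatum libraries, which did not choose the genes, spread from -1.14 to 1.84.

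Within preparations, striatum stood between brainstem and hippocampus for 65.4% of the called genes, against 47.6% of all genes tested. It stood beyond brainstem for 34.0%, against 40.6%, and on the far side of hippocampus for 0.556%, against 11.9%. Cortex stood between them for 72.5%, against 42.0% of all genes tested, beyond brainstem for 5.28%, against 22.8%, and on the far side of hippocampus for 22.2%, against 35.2%. The position of cortex cannot be told apart from its separate series of label numbers. The values of striatum and cortex share the hippocampus libraries with the calls and are given side by side. Called genes were chosen for a wide gap between brainstem and hippocampus in these pairs. A further structure can thus fall between them more often, and beyond them less often, by the choice of genes alone. Over the 5 codes with a striatum library, the median log2 difference from hippocampus over the higher genes was 0.79 for brainstem and 0.72 for striatum, and over the lower genes -0.84 and -0.81. Over the 6 codes with a cortex library, it was 0.81 for brainstem and 0.30 for cortex over the higher genes, and -0.83 and -0.30 over the lower genes. The order was not the same in every preparation. In BBB027, hippocampus stood above striatum over the higher genes, by a median of 0.24, whereas its median log2 difference from striatum was -1.33 in BBB028 and -1.09 in BBB029. From cortex it was 0.24 over the higher and -0.02 over the lower genes in BBB031 and 0.03 and 0.02 in BBB029, whereas in the other 4 preparations it was -0.89 to -0.31 over the higher and 0.28 to 0.66 over the lower genes. In BBB035, whose libraries add nothing to the fitted difference, the median log2 difference of hippocampus from striatum was 0.37 over the higher and -0.43 over the lower genes. From cortex it was -0.46 over the higher and 0.57 over the lower genes.

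Called genes were among the most variable genes in structures outside the comparison. The median SD of log2 CPM over the 8 cortex libraries was 0.72 for the higher genes, 0.75 for the lower genes and 0.28 for genes not called. Of the 10% of genes that varied most in cortex, the called set held 518 of its 1079 members (48.0%), and 6.13% of the genes not called belonged to it. In the 7 striatum libraries, the shares were 54.0% and 5.51%. Called genes were also less abundant than most, and called and other genes were not matched for level in these measures of spread. Striatum and cortex were not compared with either structure by a test here.

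The same genes were set against the changes of cortical ECs in culture, in which no library is shared with the comparison, although codes are. P0D7 cells (n = 8) were compared with P0D0, the cortical microvessels as isolated (n = 8), which also carry other cell types of the vessel wall and its surroundings. This fit did not use the code as a block, although BBB029 to BBB032, BBB035 and BBB036 are in both fractions. How far a block would move the shares and p-values was not tested. Of the genes higher in brainstem, 305 of 500 were lower in cortical P0D7 than in P0D0 (61.0%), against 29.5% of all genes tested, and 86 were higher (17.2%), against 30.9%. Of the genes lower in brainstem, 303 of 579 were higher in P0D7 (52.3%) and 147 were lower (25.4%). The median log2 fold change of P0D7 over P0D0 was -1.16 over the genes higher in brainstem, 0.99 over those lower in brainstem and 0.03 over all genes tested.

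Among genes that averaged 10 FPKM or more in brainstem or hippocampus, a limit added after the data were seen, the shares moved in the same sense. Of 197 genes higher in brainstem, 43.1% were lower in cortical P0D7 than in P0D0 and 30.5% were higher, against 18.2% and 41.3% of all such genes. Of 225 genes lower in brainstem, 9.78% were lower in P0D7 and 72.4% were higher.

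P1D7 cells (n = 6), cortical ECs passaged and grown for another 7 days, were compared with cortical P0D7 cells (n = 8), with the code as a block. The P0D7 libraries of BBB027 and BBB028 have no P1D7 partner and add nothing to this difference. Both cortical comparisons share the P0D7 libraries. A gene high in these by sampling alone can thus rise from P0D0 and fall to P1D7. The genes lower in brainstem fell more often than they rose. Of these, 243 of 579 were lower in P1D7 (42.0%), against 12.0% of all genes tested, and 132 were higher (22.8%), against 11.4%. The genes higher in brainstem moved in both directions, with 135 of 500 higher in P1D7 (27%) and 105 lower (21.0%). In P1D7 over P0D7 the median log2 fold change was 0.24 over the genes higher in brainstem, -0.38 over those lower and -0.01 over all genes tested. No test was made of these shares, which describe genes that are also more variable than the rest.

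**Figure D5:**
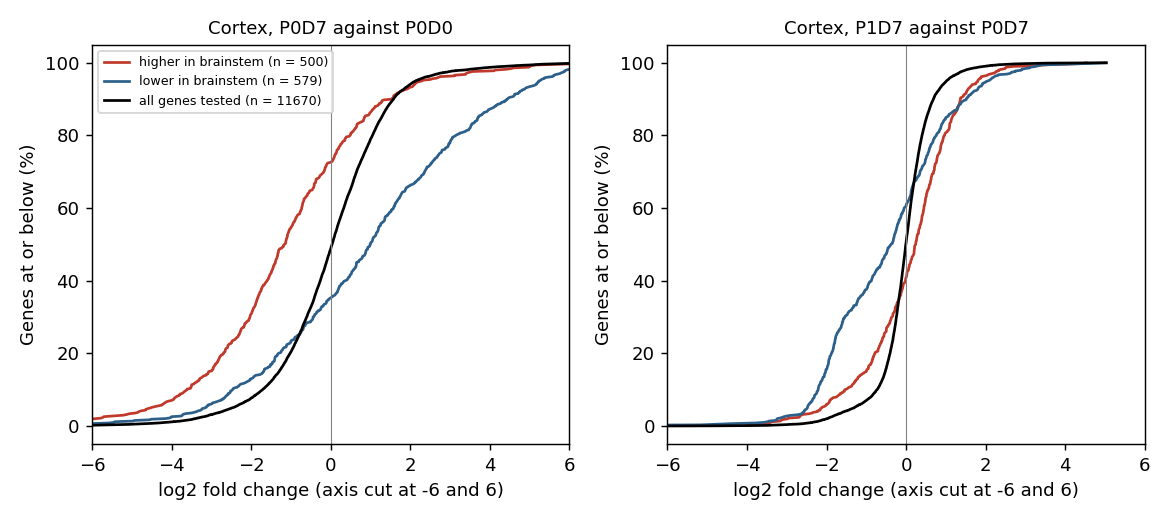
Share of genes, in percent, at or below each log2 fold change in cortical ECs, for P0D7 against P0D0 (left) and P1D7 against P0D7 (right). In the left panel the genes higher in brainstem (red, median -1.16) lie left of all genes tested (black, median 0.03), and the genes lower in brainstem (blue, median 0.99) lie right of them.

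Of the 4 identifiers, 3 passed the threshold between cortical P0D7 and P0D0, in the fit without the code as a block. ENSMFAG00000040183 stood at 11.3 ± 17.8 FPKM in P0D7 and 37.9 ± 25 FPKM in P0D0 (SD, n = 8 each), with a log2 fold change of -1.85 (adjusted p = 0.0167 in edgeR). ENSMFAG00000044030 stood at 21.5 ± 33.5 FPKM in P0D7 and 0.267 ± 0.187 FPKM in P0D0 (SD, n = 8 each), with a log2 fold change of 6.61 (adjusted p = 1.25e-05 in edgeR) over 20 counts in all P0D0 libraries together. ENSMFAG00000032706 stood at 7.71 ± 3.39 FPKM in P0D7 and 2.85 ± 1.89 FPKM in P0D0 (SD, n = 8 each), with a log2 fold change of 1.26 (adjusted p = 0.00818 in edgeR). The gene with the highest brainstem level of the 4, ENSMFAG00000030098, had 14.9 ± 17.7 FPKM in P0D7 and 18.5 ± 4.50 FPKM in P0D0 (SD, n = 8 each) and missed the threshold (adjusted p = 0.477 in edgeR). Its direction was not the same in every code of both fractions. In BBB035 it was higher in P0D7, at 51.9 FPKM against 22.0 FPKM in P0D0. It was lower in P0D7 in each other shared code, as in BBB029, at 3.30 FPKM against 26.0 FPKM. In P1D7 against P0D7, ENSMFAG00000040183 and ENSMFAG00000044030 were lower, with log2 fold changes of -1.75 (adjusted p = 0.00847 in edgeR) and -1.82 (adjusted p = 0.00631 in edgeR). ENSMFAG00000032706 was higher, at 1.33 (adjusted p = 0.000723 in edgeR), and ENSMFAG00000030098 missed the threshold, at 0.62 (adjusted p = 0.35 in edgeR).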

How the data were processed

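The authors deposited a table of estimated counts (read pairs assigned to each gene, not normalized) and a table of FPKM, scaled to gene length and library total. Per the methods, short reads, reads of low quality and ribosomal reads were removed, the rest were aligned with the Omicsoft Sequence Aligner, and pairs were counted over the Ensembl gene model in ArrayStudio. In the 13 libraries, 1.46% of the values depart from a whole number at all and 1217 values by more than 0.01, and counts were rounded. From these files, edgeR 4.0.16 in R 4.3.3 was run with TMM normalization, a trended dispersion and the code as a block. The comparison of cortical P0D7 with P0D0 was fitted without the block. DESeq2 1.42.0, limma 3.58.1, other size factors, filters, fold thresholds and left-out libraries were alternatives. Log2 CPM used a prior count of 2. FPKM gave levels and the filter of 1 FPKM in 3 libraries. Depth limits precision most in hippocampus replicate 3, and read pairs carry no molecular identifiers.

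The replicate numbers 1 to 6 mark the same codes in both structures. The block was taken because the deviations of same-code libraries from their structure means correlated over 0.1 in every pair (6 pairs, 0.563 to 0.856, mean 0.690), against -0.113 on average for different codes (36 pairs), and 12 of 12 libraries correlated best with their own code. No 2 libraries of a structure agreed within sampling noise (mean chi-square per gene at least 20.8 over 36 pairs, where 1 is sampling alone).

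On simulated data with 200 changed genes among 11670, drawn from the means, depths and preparations of these libraries, 43.3% of genes changed 1.5-fold were called, 89.6% of those changed 2-fold and 98.5% of those changed 4-fold, and 1 unchanged gene was called. Whether these figures hold for genes as variable as the called ones, or with more than 200 genes changed, was not tested. The named identifiers are the 2 with the largest rise and the 2 with the largest fall under the conditions in the text. The members, lists and tests were chosen with earlier results of these data known. Lists of endothelial, glial, neuronal, mural and transporter genes, fixed by symbol, were not run, because the reference table used holds 0 Ensembl identifiers among 40596 genes. The spread of called genes in other structures, replicate 7 and the cortical fractions were looked at after the calls were seen.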

Additional observations from a re-analysis of the deposited data

Results flagged for a closer look

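Within the 7 hippocampus libraries, ENSMFAG00000040183 stood at 16.1 FPKM in replicate 7, apart from the next value of 6.67 FPKM by 0.603 of the whole range. ENSMFAG00000044030 stood at 92.6 FPKM in replicate 2, apart from the next value of 35.9 FPKM by 0.617 of the range. Both exceed Dixon's limit for 7 samples. In all, 14 groups of values were looked at, and chance alone marks about 1 in 20.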

How the results depend on the processing

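The count of 1079 genes, with 500 higher and 579 lower in brainstem, was not reached without the replicate block. With no replicate block and replicate 7 of hippocampus in the difference, edgeR called 0 genes (0 higher, 0 lower) and DESeq2 called 151 (61 and 90). With no replicate block and the 12 paired libraries alone, edgeR called 1 gene (0 and 1) and DESeq2 called 370 (198 and 172). With all 30 P0D7 libraries fitted together it was 524 (273 and 251), and with limma on log2(FPKM + 1) it was 696 (287 higher). With no fold threshold it was 4102 (2036 and 2066), and at a fold of at least 2 it was 354 (164 and 190). The causes were not tested, apart from the fold threshold, which acts by construction. Each other setting, with libraries left out in turn, other size factors, other filters, limma on log2(FPKM + 0.1), a robust fit or DESeq2 with the block, kept the counts within 1.5 times. Leaving out 1 library of a pair takes the whole pair out of the difference. Over the 13 libraries left out in turn the count was 892 to 1248, with 426 to 597 higher and 457 to 651 lower, and 719 genes (66.6%) were called in the same direction each time. No called gene was called in the opposite direction under any alternative. The log2 fold changes of the 4 identifiers kept their sign in 29 of 29 settings, and over the libraries left out they were 2.45 to 3.33 for ENSMFAG00000040183, 2.28 to 2.66 for ENSMFAG00000030098, -2.54 to -1.86 for ENSMFAG00000044030 and -2.26 to -2.04 for ENSMFAG00000032706. Without the block, edgeR called none of the 4 (adjusted p 0.184 to 0.344, and 0.0711 to 0.216 over the paired libraries). The mean difference in genes detected was -31.5 at a limit of 0.1 FPKM, -14.7 at 10 FPKM and -15 to 27.2 without each pair.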

Other observations

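The length behind the FPKM values, taken as the count over the FPKM and the library total, was 2648 bases at the median for genes higher in brainstem, 2458 bases for genes lower in brainstem and 2417 bases for all genes tested. The cerebellum libraries, 1 each of BBB029 and BBB035, had medians of the higher genes minus the lower genes of 0.68 and 0.04 on the log2 scale. In BBB029, hippocampus stood above cerebellum over the genes lower in brainstem by a median of 1.27, and below it over the genes higher in brainstem by -0.16. In BBB035 the corresponding medians were -0.11 and 0.29.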
